A study of Arabidopsis thaliana with 12 samples.

Results

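The pathogenesis-related (PR) marker genes of Arabidopsis described here were 6 loci taken from a list of gene identifiers, with no threshold on a measured value, though earlier results of these data were known when the list was made: PR1 (AT2G14610), PR2 (AT3G57260, annotated as BGL2), BG3 (AT3G57240), PR3 (AT3G12500, annotated as HCHIB), PR4 (AT3G04720) and PR5 (AT1G75040). They are 6 of the 27444 protein-coding genes annotated on the 5 nuclear chromosomes of the assembly TAIR10.1. The study examined DNA methylation in wild-type Col-0 plants, whose DNA was converted enzymatically and sequenced. The control, SA-CNPs and Px groups each comprised 4 libraries from 2 plant samples. SA-CNPs are chitosan nanoparticles loaded with salicylic acid, to which plants were moved at day 5, at 5 ppm in the medium, and Px plants received spores of the powdery mildew fungus Podosphaera xanthii at day 12. All plants were grown on the same basal medium without treatment or with the treatment named, and were collected at day 14 after the roots had been cut off, so that each sample mixes the cell types of the shoot. The data are 1 table of CpG calls that pools libraries, and which libraries it pools is not given in the sources used here. No group could therefore be set against another, no spread between plants could be computed, and every interval below covers counting error only.

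PR genes encode mostly secreted proteins that accumulate when a plant is attacked. Salicylic acid acts through the coactivator NPR1 and TGA transcription factors to switch on PR1, PR2 and PR5, which serve as markers of that pathway, while PR3 and PR4 are widely used as markers of jasmonate and ethylene signalling. In Arabidopsis, CpG methylation is copied at each replication by the methyltransferase MET1. It is common in transposons and repeats, where other cytosine contexts are methylated too, and it also occurs in the bodies of many steadily expressed genes.

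The CpG level is the share of reads called methylated, summed over the CpG cytosines of a body, flank or bin, and stands with its 95% Wilson interval in parentheses. The table covered 5465516 of 5567714 nuclear CpG cytosines with a median of 58 reads, and 35 and 78 reads at the 5th and the 95th percentile. The nuclear level was 26.6%. Chloroplast DNA, which is taken as unmethylated and serves below as a reference, gave 0.367% (0.366 to 0.368). It is not a floor for nuclear DNA, since some nuclear gene bodies lay lower. Mitochondrial DNA gave 4.01%. Over the 27262 protein-coding genes with a covered body the median level was 4.71%, with quartiles of 0.385% and 21.5%, and 23.9% of them lay at or below the chloroplast level.

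The bodies of the PR genes held little CpG methylation, and every body cytosine at 25% or more lay in the 2 glucanase genes. All 704 CpG cytosines of the 6 bodies were covered. Of these, 547 (77.7%) had no methylated read, 133 had 1 to 3 methylated reads, 676 were below 5% and 17 were at 25% or more. The 17 comprised 7 in PR2 and 10 in BG3. The body level was below 1% in 4 of 6 genes, against 39.3% of all protein-coding genes. Short genes were lower in general: among the 7930 protein-coding genes within the length range of the 6, 902 to 1849 bp, 62.0% lay below 1% and the median was 0.518%. The median over the 6 bodies was 0.681%. Thus the count of low bodies lay above the share over all genes and close to the share among genes of like length.

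**Figure D1:**
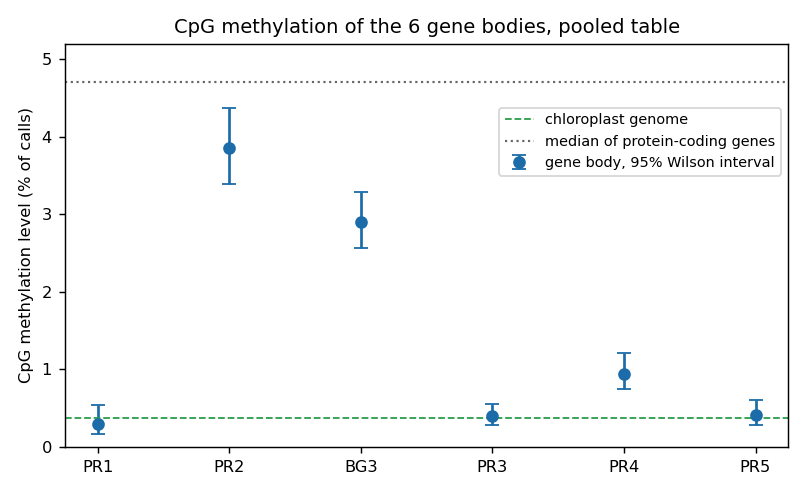
CpG level of the 6 gene bodies in the pooled table, as percent of calls on a linear scale, with 95% Wilson intervals for counting error only. PR1, PR3 and PR5 have intervals that hold the chloroplast level of 0.367%, and PR4, BG3 and PR2 lie above it.

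PR1, the classical marker of the salicylic acid response and a secreted protein of the CAP family, had the lowest body level. It lies on chromosome 2, 6241640 to 6242541, and its 52 CpG cytosines gave 11 methylated of 3670 calls, or 0.300% (0.167 to 0.536). The 11 calls fell on 11 different cytosines, none above 1.82%. This body stood at the 19.4th percentile of protein-coding genes. Its density of 28.8 CpGs per kb, each CpG counted once for both strands, was the lowest of the 6, near the median of 25.1 CpGs per kb over protein-coding genes.

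PR5, which encodes a thaumatin-like protein, also had a body level near that of chloroplast DNA. Its locus is chromosome 1, 28177670 to 28179022, and its 116 cytosines gave 28 methylated of 6720 calls, or 0.417% (0.288 to 0.602). The highest single value was 8.0%, from 4 of 50 reads on the minus strand at 28178025.

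PR3, a basic chitinase that cleaves the chitin of fungal walls, had 35 methylated of 8814 calls over 160 cytosines, or 0.397% (0.286 to 0.552), on chromosome 3, 3962136 to 3963984. PR4, a hevein-like protein with a chitin-binding domain, lies on the same chromosome at 1285425 to 1286760 and reached 64 methylated of 6764 calls, or 0.946% (0.742 to 1.21). PR4 differed from the 3 genes above in how its calls were spread: 44 of its 116 cytosines had a methylated read, each between 1 and 3, against 29 of 160 in PR3 and 22 of 116 in PR5. No cytosine of PR4 or PR3 exceeded 4.76%. The PR4 interval lay above the chloroplast level, and those of PR1, PR3 and PR5 held it.

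PR2 and BG3 both encode beta-1,3-glucanases, enzymes that cut the glucan of fungal walls, and lie in the same stretch of chromosome 3 at 21188397 to 21189967 and 21181642 to 21183144. PR2 gave 226 methylated of 5862 calls over 110 cytosines, or 3.86% (3.39 to 4.38), and BG3 gave 237 of 8149 over 150, or 2.91% (2.57 to 3.30). In the order PR1, PR3, PR5, PR4, BG3 and PR2, only the neighbouring pairs PR1 with PR3 and PR3 with PR5 had overlapping intervals. Both glucanase genes remained under the median of 4.71% over all protein-coding genes, at the 48.1th percentile for PR2 and the 45.9th for BG3. BG3 was also the densest in CpG of the 6, with 49.9 CpGs per kb.

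Within the glucanase bodies the methylation was concentrated at a few CpGs rather than spread. The 10 cytosines of BG3 at 25% or more carried 218 of its 237 methylated calls (92.0%), and the other 140 cytosines had 0.247% (0.158 to 0.385), which holds the chloroplast level. The 7 such cytosines of PR2 carried 167 of 226 methylated calls (73.9%), and its other 103 cytosines had 1.08% (0.835 to 1.39). A CpG reads the same on both strands, so each is measured by separate reads from the plus and the minus strand. By the rule that both strands reach 25%, a definition chosen after the values were seen, 2 of 6 PR genes had a methylated body CpG, against 59.3% of all protein-coding genes. PR2 had 3 such CpGs and BG3 had 5. The share of 59.3% is over genes of all lengths and was not matched to the length of the 6.

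The strongest CpG of PR2 was at 21189297, where 29 of 46 plus-strand reads (63.0%) and 44 of 64 minus-strand reads (68.8%) were methylated. The next CpG, at 21189299, was lower, with 12 of 47 reads (25.5%) and 15 of 64 (23.4%), the second of which falls short of the 25% rule. At 21189305 the values were 19 of 50 (38.0%) and 31 of 64 (48.4%). The remaining one, at 21189479, had 16 of 49 (32.7%) and 16 of 58 (27.6%). Both strands gave these CpGs of PR2 the same order, with 21189297 highest and 21189299 lowest.

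BG3 had a tighter and higher group. At 21182387, 40 of 50 plus-strand reads (80.0%) and 32 of 46 minus-strand reads (69.6%) were methylated. At 21182392 the values were 31 of 48 (64.6%) and 25 of 41 (61.0%). At 21182411 they were 24 of 47 (51.1%) and 10 of 33 (30.3%). A second pair followed at 21182519, with 12 of 46 (26.1%) and 16 of 48 (33.3%), and at 21182521, with 14 of 48 (29.2%) and 14 of 49 (28.6%). The first group covered 6 cytosines between 21182387 and 21182412 at 61.1% (55.1 to 66.8), and the second 4 cytosines at 29.3% (23.3 to 36.1). In each glucanase gene, then, the strongest CpG was methylated in most reads of both strands and the others in a smaller share. A level between 0 and 100% in a pooled table cannot be told apart as a difference between libraries, between cells or between the copies within a cell.

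In each glucanase body, a pair of these partly methylated CpGs abutted directly. The pairs are shown because adjacent CpGs can be compared in them, and the letters were read from the trinucleotide contexts that the table gives for both strands. The plus strand is written 5′ to 3′ with the CpGs in capitals, PR2 from 21189296 to 21189301 and BG3 from 21182518 to 21182523.
PR2 CpG pair: cCGCGt
BG3 CpG pair: tCGCGg
In PR2 the first CpG of the pair, at 63.0% and 68.8%, stood well above the second, at 25.5% and 23.4%, whereas in BG3 both CpGs lay between 26.1% and 33.3%. The first and the third CpG of the stronger BG3 group each had the surrounding bases cCGg.

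**Figure D2:**
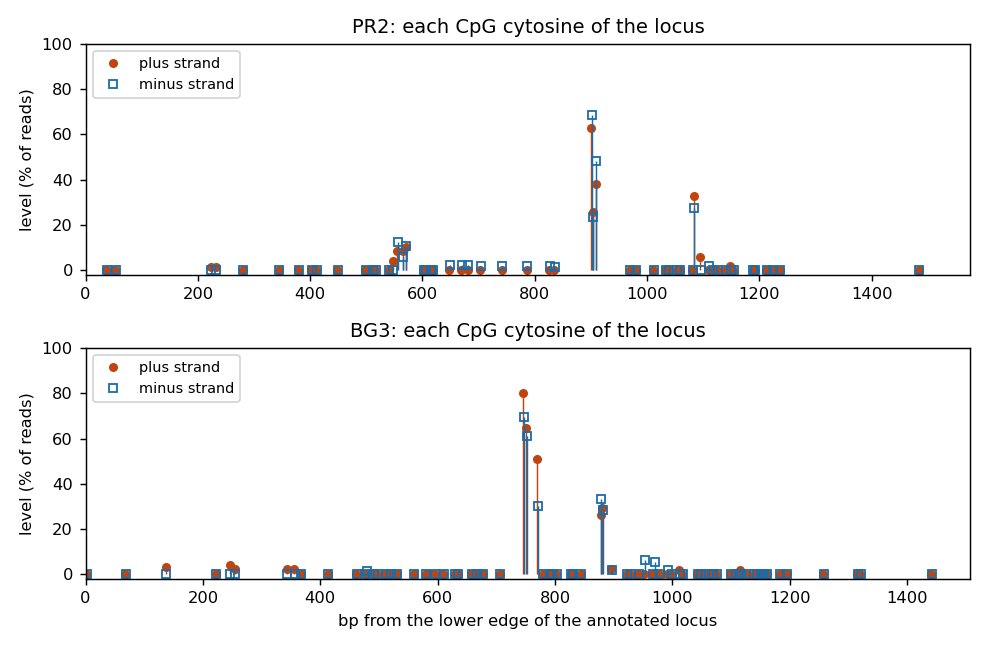
CpG level of every cytosine in the bodies of PR2 and BG3, as percent of reads, against the distance in bp from the lower edge of the locus, with the strands in separate colours. Most cytosines lie near 0, and the methylated ones form a few narrow groups that appear on both strands, up to 68.8% in PR2 and 80.0% in BG3.

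Single methylated calls formed a second, weaker feature. PR2 had 8 consecutive minus-strand cytosines with exactly 1 methylated call each, between 21189045 and 21189232, while the 8 plus-strand cytosines of the same CpGs had none. PR3 had a run of 8 on the minus strand between 3962516 and 3962641, and PR5 a run of 7 between 28178680 and 28178779, in both cases with no methylated call on the other strand. PR4 had a run of 5 on the plus strand between 1285657 and 1285709. Runs of at least 5, a length chosen after the values were seen, occurred in 4 of 6 PR genes, against 43.2% of all protein-coding genes. That share was not matched for gene length either. The body level of the strand with the run was higher than that of the other strand in PR3, at 0.661% against 0.135%, and in PR5, at 0.651% against 0.132%. In PR4 it was lower, at 0.814% on the plus strand against 1.09% on the minus strand. The rule of exactly 1 methylated call left out a minus-strand series in PR4. Between 1286136 and 1286247 each minus-strand CpG cytosine had 1 or 2 methylated reads, against 0 to 2 on the plus strand of the same CpGs. In PR2 the strand with the run was higher, at 4.28% against 3.41%. These PR2 levels include the strongly methylated CpGs, such as 21189297 with 44 minus-strand and 29 plus-strand methylated reads. The table holds no reads, so whether a run came from 1 molecule was not tested.

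Outside the bodies, PR4, PR3, PR1 and BG3 had densely methylated DNA within reach, and PR2 and PR5 did not. Within 2000 bp on either side, 119 bins of 200 bp had at least 2 covered CpG cytosines, of which 88 were below 1% and 13 at 25% or more. The 13 were 6 in PR4, 5 in PR3, 1 in PR1 and 1 in BG3, with none in PR2 or PR5. At least 1 such bin occurred in 4 of 6 PR genes, against 75.1% of all protein-coding genes. Within 1000 bp it occurred in 1 of 6, PR4, against 51.6%. The annotation used gives no strand, so the flanks are named lower and higher by coordinate and not as promoter and downstream side.

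**Figure D3:**
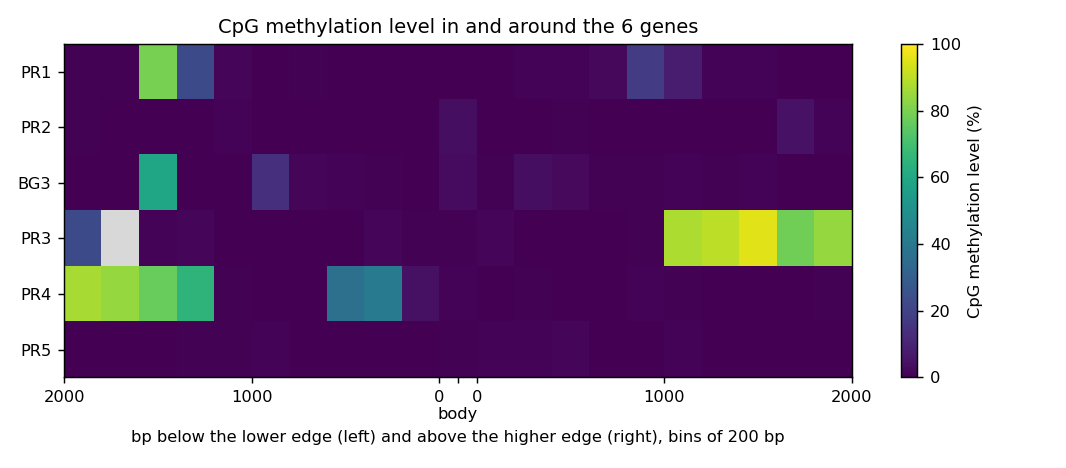
CpG level in bins of 200 bp from 2000 bp below to 2000 bp above each of the 6 genes, with the body as 1 cell in the middle and colour for percent of calls. Methylated bins occupy both far and near lower positions in PR4, the far higher side of PR3 and single lower bins in PR1 and BG3, while PR2 and PR5 stay below 5% throughout.

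PR4 had the most methylated surroundings on its lower side, at 33.4% (32.2 to 34.6) over 2000 bp, against 0.293% on its higher side. The bin next to the gene, 1 to 200 bp away, stood at 4.44% (3.0 to 6.52), and the next bins at 41.5% and 36.9%. The bins from 601 to 1200 bp returned to below 1%. Those from 1201 bp outward stood at 65.2%, 76.7%, 84.0% and 86.8%. The bins from 1401 bp outward held only 4, 2 and 4 cytosines. The interval of the 84.0% bin (76.6 to 89.4) overlapped those of the 76.7% bin (70.7 to 81.8) and the 86.8% bin (82.4 to 90.3). The near block lay inside AT3G04717, an annotated transcribed pseudogene at 1284709 to 1285334 that ends 90 bp below PR4. This pseudogene had 859 methylated of 2890 calls, or 29.7% (28.1 to 31.4), and 26 of its 52 cytosines were at 25% or more. Its methylation was in 2 runs, 16 cytosines at 62.0% (58.6 to 65.3) and 10 at 55.8% (51.3 to 60.1), the nearer ending 264 bp from PR4. The outer block, 24 cytosines between 1283465 and 1284213 at 73.0% (70.6 to 75.3), overlapped no annotated locus. The closest methylated CpG on the higher side of PR4 was 7991 bp away, beyond IAA16, a repressor of auxin responses with a body level of 0.186%.

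PR3 showed the opposite arrangement, with 27.1% (25.9 to 28.3) on the higher side and 2.55% (2.16 to 3.0) on the lower. All bins from 1001 to 2000 bp above the gene were methylated, at 87.7%, 90.2%, 95.7%, 78.4% and 84.2%, while the bins nearer than 1000 bp were not. These belonged to 1 run of 26 cytosines between 3965140 and 3965880 at 86.4% (84.7 to 88.0), in which the lowest cytosine had 69.0% and the highest 98.3%, and which overlapped no annotated locus. Of the 6 genes, PR3 thus had the highest single bin, at 95.7% (90.9 to 98.0), which held only the 2 cytosines of the CpG at 3965544. On its lower side 1 CpG at 1960 bp had 90.7%, in a segment shared by the noncoding RNA AT3G02505 and NF-YC11, a subunit of a CCAAT-binding factor whose body had 18.5%. CYSB, a cystatin gene 215 bp below PR3, had 0.633%. The noncoding RNA AT3G12502 overlapped PR3 over 1579 bp and had 0.495%, so its calls are largely those of PR3.

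PR1 had 1 compact methylated island. On the lower side, 16 cytosines between 6240102 and 6240241, 1399 to 1538 bp from the gene, gave 815 methylated of 1017 calls, or 80.1% (77.6 to 82.5). Individual cytosines of the island ranged from 49.1% to 89.6%. No annotated locus overlapped it, and none lay within 2000 bp of PR1. The lower flank as a whole had 13.8% (13.0 to 14.7), but only 0.207% when limited to 1000 bp. The higher flank had 1.82% (1.58 to 2.09), most of it from 2 CpGs. One, at 894 and 895 bp, had 39 of 202 (19.3%) and 22 of 140 (15.7%) methylated reads, and the other, at 1047 and 1048 bp, had 34 of 234 (14.5%) and 30 of 183 (16.4%). Read depth moved with this side: 60 of its 62 cytosines were above 78 reads, the 95th percentile of the nuclear chromosomes, and their median of 179 reads was 3.09 times the nuclear median. In the PR1 body 21 of 52 cytosines passed 78 reads, with a median of 68.5. Leaving out cytosines above 195 reads gave 1.80% for this flank, and the part of the excess depth in these intermediate levels was not tested further.

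**Figure D4:**
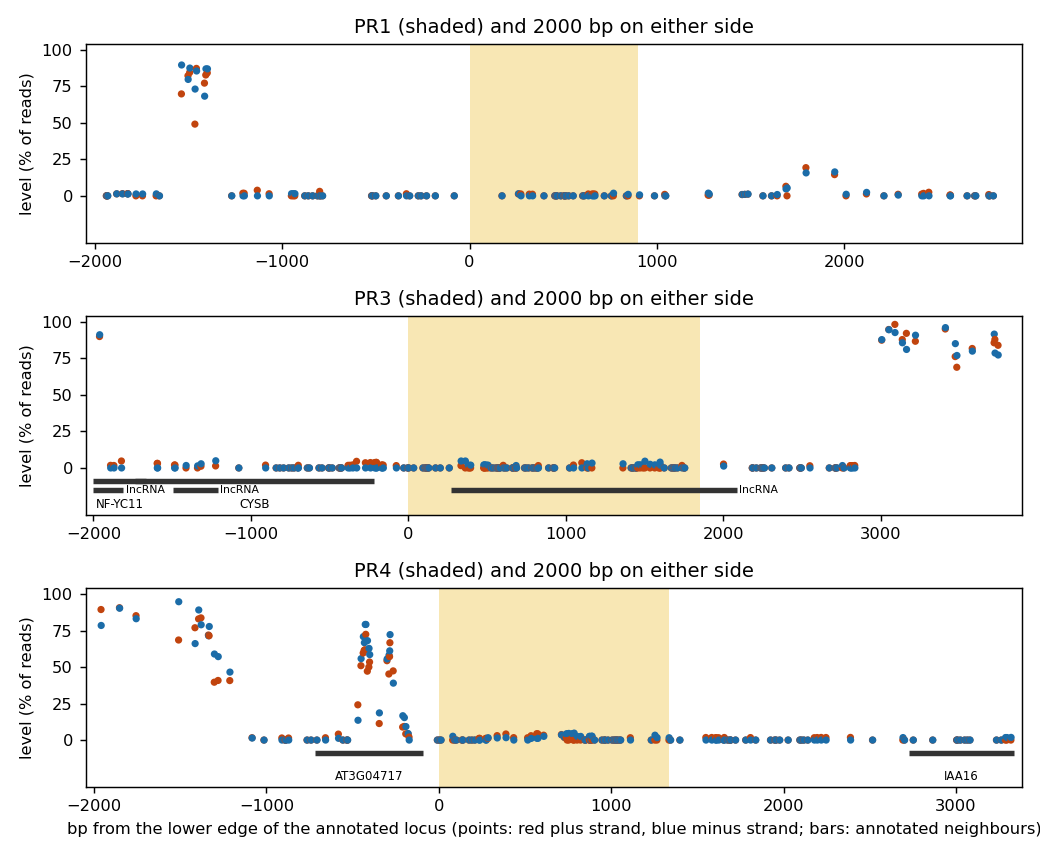
CpG level of every cytosine, as percent of reads, across PR1, PR3 and PR4 and 2000 bp on either side, against distance in bp from the lower edge of the locus. Bars mark annotated neighbours, and the shaded bodies stay near 0 while the PR1 island, the PR3 run and the blocks below PR4 reach up to 98.3%.

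The glucanase genes had few methylated CpGs around them. The lower flank of BG3 had 9.08% (8.31 to 9.91), and all of it at 25% or more lay within AGL16, a MADS-box transcription factor gene that ends 615 bp below BG3. That gene had 6.39% over its body, with 10 cytosines at 25% or more, of which a group of 6 stood at 87.8%. The higher flank of BG3 had 0.972%. PR2 had 0.315% on the lower side and 1.27% on the higher, where 3 cytosines inside BG1, another beta-1,3-glucanase gene, had 29.6% (22.9 to 37.3). The nearest methylated CpG below the PR2 body was 5875 bp away, and the nearest above the BG3 body was 6153 bp away. Each was in the body of the other gene, so no CpG met the rule in the DNA between the methylated groups of the pair.

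PR5 had the emptiest surroundings, with 0.326% on the lower and 0.405% on the higher side and no bin above 1.42%. Its neighbour AT1G75050, 1034 bp above, had 0.287%. The nearest methylated CpGs were 4564 bp below and 9818 bp above, which left 15733 bp around PR5 without one. The same span was 9589 bp for PR4, 5193 bp for PR1 and 4963 bp for PR3. Among the 11083 protein-coding genes with no methylated body CpG the median span was 6608 bp, with quartiles of 4195 and 10438 bp. PR5 stood at the 89.9th percentile of that distribution, PR4 at the 70.9th, PR1 at the 35.9th and PR3 at the 33.5th. The salicylic acid markers PR1 and PR5 were therefore not alike in this span, with PR5 in a long unmethylated one and PR1 in one below the median. PR2, the remaining marker of that pathway, had methylated CpGs in its body and so no such span. Like PR5, PR2 had no flank bin at 25% or more.

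The 4 letters ACGT form the core recognised by many plant bZIP proteins, the family that includes the TGA factors of the salicylic acid response. They were searched as ACGT, which reads the same on both strands, through the bases on each side of every CpG. The 6 bodies held 32 such CpGs, of which 0 met the rule of 25% on both strands, and the 2000 bp on either side held 59, of which 3 did (5.08%). By the same rule 8 of all 352 CpGs in the bodies (2.27%) and 53 of all 604 in the flanks (8.77%) were methylated. In the nuclear genome 21.5% of ACGT CpGs and 30.5% of all CpGs met the rule. The 3 lay in the outer methylated blocks of PR3 and PR4. In PR3 the CpG at 3965715 had 36 of 44 (81.8%) and 56 of 70 (80.0%) methylated reads. In PR4 the CpG at 1284010 had 40 of 52 (76.9%) and 37 of 56 (66.1%), and that at 1284122 had 21 of 53 (39.6%) and 33 of 56 (58.9%). Limited to 1000 bp, the flanks held 37 ACGT CpGs and 0 met the rule, against 14 of all 307 CpGs (4.56%). The letters are common: 96.4% of protein-coding genes had them within 2000 bp on the lower side, 96.4% on the higher side and 91.3% in the body. PR1 had 6 on the lower side, 5 on the higher and 3 in the body, none of them methylated. A match is a description of letters and not of a binding site.

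Genes related to the PR genes by protein family had body levels in the same low range, with a few far above it. A list of 61 genes, the PR genes left out, covered PR1-like, beta-1,3-glucanase, chitinase and thaumatin-like genes, and 43 of the 61 (70.5%) lay below 1%, with a median of 0.347%. At least 1 methylated body CpG was present in 15 (24.6%), and a methylated flank bin in 44 (72.1%). Among 20 PR1-like genes, 11 were below 1% and the median was 0.406%. Their lowest were AT4G33720, with no methylated call and an upper Wilson limit of 0.129%, and AT5G26130 at 0.0669%, and their highest AT4G33730 at 36.2% and AT1G50060 at 37.4%. PR1 itself, at 0.300%, lay below the median of this list.

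Among the 6 listed beta-1,3-glucanase genes, 5 were below 1%. The 6 ran from BG5 (AT5G20340) at 0.0597% and AT4G16260 at 0.106% to AT5G20390 at 0.337% and BG1 at 1.36%. Thus PR2 at 3.86% and BG3 at 2.91% both had a higher body level than any of the 6 listed. Of those, only BG1, the next glucanase gene beyond PR2, came above 1%. Beta-1,3-glucanase genes outside this short list were not compared, so no rank within the whole family is given. Of 14 chitinase genes, 11 were below 1% with a median of 0.489%, and PR3 at 0.397% lay under it. Their lowest were CHI (AT2G43570) at 0.0753% and CHIA (AT5G24090) at 0.173%, and their highest POM1 (AT1G05850), a chitinase-like gene of cell wall growth, at 6.81% and AT4G01700 at 28.1%. Of 21 thaumatin-like genes, 16 were below 1% with a median of 0.444%, and PR5 at 0.417% was again close to the middle. AT2G17860 at 0.0593% and AT1G19320 at 0.130% were lowest there, and AT5G40020 at 20.2% and AT5G24620 at 42.9% highest.

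**Figure D5:**
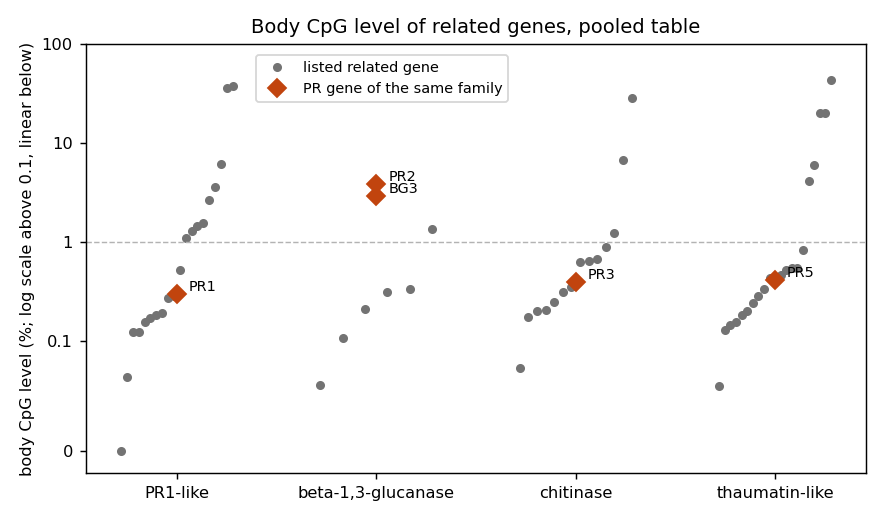
Body CpG level, as percent of calls on a scale that is logarithmic above 0.1%, for 61 related genes in 4 families (grey) and the PR genes of the same family (red diamonds). PR1, PR3 and PR5 sit within the range of the listed genes of their families. PR2 and BG3 lie above all 6 listed beta-1,3-glucanase genes.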

How the data were processed

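DNA of Col-0 plants without roots was converted enzymatically and sequenced in 12 labelled libraries. Per the methods, reads were quality filtered, aligned to TAIR10.1 with Bismark and Bowtie 2, restricted to unique alignments and deduplicated, so repeated sequence can be missing or misplaced. The authors deposited raw counts of methylated and of unmethylated reads per CpG cytosine and strand, without normalization, in 1 pooled table merged from libraries that the sources do not name, and it was treated as 1 sample of unknown condition. Cytosines outside CpG were not analysed here.

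Levels, bins of 200 bp and Wilson intervals were computed in Python 3.11.15 with numpy 2.4.6, pandas 2.3.3 and scipy 1.17.1, and drawn with matplotlib 3.10.9. The computation was tested on simulated data. Intervals treat calls as independent. The median of 58 reads per nuclear cytosine limits a single cytosine, so regions were preferred. Gene positions came from RefSeq (TAIR10.1), without strand, exons or sequences. The planned promoter motif search was therefore replaced by the bases that adjoin each CpG. Annotated loci are those of the RefSeq gene list, and no separate annotation of transposons or repeats was used. Named were the 6 genes, loci within 2000 bp and the 2 lowest and 2 highest genes of each related list. The genes, lists and rules were chosen with earlier results of these data known, and the definitions of methylated body CpGs, runs, spans and length range and the ACGT search after the values were seen. Alternatives covered read minimums, deep cytosines, strands, weighting, trimming, bins, flanks and thresholds.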

Additional observations from a re-analysis of the deposited data

How the results depend on the processing

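The count of PR genes with a body level below 1% was 4, and that with a methylated body CpG was 2, under each alternative run on them, 3 of which for the body CpGs (a threshold of 50%, at least 20 reads, strands summed) were chosen after seeing the data. The count of 4 includes PR4, which lay near the cut. Its level was 0.946% (0.742 to 1.21) as reported and 0.995% with 100 bp trimmed from each end. The median body level was 0.681% as reported, 0.704% as a mean of cytosine levels and 0.711% with 100 bp trimmed from each end. The count with a methylated flank bin was 4 as reported and 1 with flanks of 1000 bp, because the bins of PR1, BG3 and PR3 lay farther out. Of 36 alternative body levels, 35 stayed within the counting interval, the exception being BG3 at 3.40% as a mean of cytosine levels. Of 72 alternative flank levels 13 left it, 10 of them with flanks of 1000 bp, where the PR3 higher side had 0.255% and the PR4 lower side 21.7%. A minimum of 10 or 20 reads left every body level as it was, since no body cytosine was that thinly covered, and so bears on nothing. With 1 pooled sample, no paired fit and no fit without a replicate could be made, no difference between treatments was tested, and intervals say nothing about spread between plants.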
